A study of Mus musculus with 18 samples.

Results

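Keratins, desmosomal proteins and claudins were followed through the hypothalamus, pituitary and thyroid of WT mice and of mice carrying the THRB K146Q mutation. The rule for members uses gene symbols and no measured value. Of the 24054 genes in each table, 88 had a member's symbol. GENCODE M21 on GRCm38 placed 85 of them, with 25 type I keratins on chromosome 11, 21 type II keratins and the type I gene Krt18 on chromosome 15, and the 9 desmosomal cadherins on chromosome 18. The members were 48 numbered keratins (26 of type I and 22 of type II), 15 desmosomal genes (9 cadherins of the Dsg and Dsc families and 6 plaque genes, Dsp, Jup and Pkp1 to Pkp4) and 25 numbered claudins.

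RNA-Seq was performed on each tissue of 3 WT and 3 K146Q mice, which gave 18 libraries in 6 groups of 3. All were untreated males of 3 months, and both genotypes shared a substrain. Their background is given as C57BL/Ntac in the sample labels and as C57BL/NTC in the paper. The K146Q mice were homozygous for a whole-body knock-in, a single-base change shared by every Thrb isoform that replaces a lysine of the receptor, a site of SUMO attachment, with glutamine. Since every tissue carried the mutation, an effect arising in a tissue and one reaching it through the rest of the hormonal axis cannot be told apart. A base substitution does not have to alter the read count of its own gene, so that Thrb cannot check the labels. Its signal was 14.9, 16.3 and 15.6 in WT and 7.19, 5.64 and 4.98 in K146Q thyroid, 104, 97.7 and 106 and 159, 142 and 184 in pituitary, and 27.0, 28.8 and 28.1 and 26.7, 26.1 and 29.96 in hypothalamus.

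Signal here is the deposited value, the reads of a gene divided by a scaled library total. Each library held between 14902330 and 21230050 reads, and 3 reads, taken as the lowest reliable count, corresponded to a signal of 0.133 to 0.190. Tissue labels were checked against defining genes. Thyroglobulin (Tg) was the most abundant of 10 follicular cell markers in the thyroid, at 349910, 357300 and 293440 in WT and 83869, 96214 and 130420 in K146Q mice. Growth hormone (Gh) led 7 hormone cell markers in the pituitary, and Snap25 led 5 neuron markers in the hypothalamus. Mouse numbers were 1, 2 and 43 for WT and 60, 62 and 83 for K146Q, and values below are always given in that order.

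Keratins build the intermediate filaments of epithelial cells, and each filament needs a type I and a type II partner. Desmosomes anchor these filaments at the cell border. Their cadherins bridge neighbouring cells and are joined through plakoglobin and plakophilins to desmoplakin, which holds the keratin. Claudins are membrane proteins that form the strands of tight junctions and set which ions pass between cells. Thyroid follicles are simple epithelia that use Krt8 and Krt18 and close their colloid space with tight junctions, whereas Krt5 and Krt14 mark the basal layer of stratified epithelia.

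Of the 88 members, 55 had a mean signal of at least 0.5 in at least 1 tissue and are described here. The filter passed 48 members in thyroid, 33 in pituitary and 30 in hypothalamus. All 3 tissues shared 20 of them, among them Krt8, Krt18, Dsp, Jup, Dsg2, Dsc2, Pkp2 and Pkp4. A further 12 passed in pituitary and thyroid only, including Krt7, Krt19, Pkp3, Cldn4 and Cldn7. Another 13 passed in the thyroid alone, with Krt5, Krt15, Dsc1, Dsg3 and Pkp1, and 6 in the hypothalamus alone. The 33 members that passed nowhere were mostly keratins of hair and cornified epithelium, and Krt23 was among them.

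Levels were compared between genes per kb of annotated exon. The length joins all annotated exons of a gene and can exceed that of 1 transcript, which lowers the rank of such genes. Krt7, with 7049 bases against 1958 for Krt8, was at 27.5 ± 3.22 signal per kb in WT thyroid (SD, n = 3). In WT thyroid the 5 highest were Krt8 at 303 ± 52.9 signal per kb (SD, n = 3), Krt18 at 219.7 ± 32.2, Cldn3 at 176 ± 19.9, Krt19 at 96.2 ± 23.1 and Cldn7 at 57.3 ± 3.84. WT pituitary was led by Cldn9 at 55.0 ± 3.59 signal per kb, followed by Krt18 at 43.95 ± 2.24, Krt8 at 33.0 ± 3.91, Cldn3 at 32.1 ± 2.64 and Pkp4 at 27.4 ± 0.715. In WT hypothalamus Cldn11, the claudin of myelin, stood first at 80.9 ± 5.04 signal per kb. It was followed by Pkp4 at 51.4 ± 2.04, the endothelial claudin Cldn5 at 18.1 ± 1.56, Cldn12 at 11.4 ± 0.579 and Jup at 10.5 ± 0.532. Cldn25, Cldn26 and Krt85 have no annotated exon length here and were not ranked; Cldn25 was at 62.1 ± 2.25 signal in WT hypothalamus and 42.3 ± 1.68 in WT pituitary (SD, n = 3). Among the members ranked, thyroid and pituitary had the simple keratin pair among their highest members, and the hypothalamus had none of the keratins among its first 5.

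**Figure D1:**
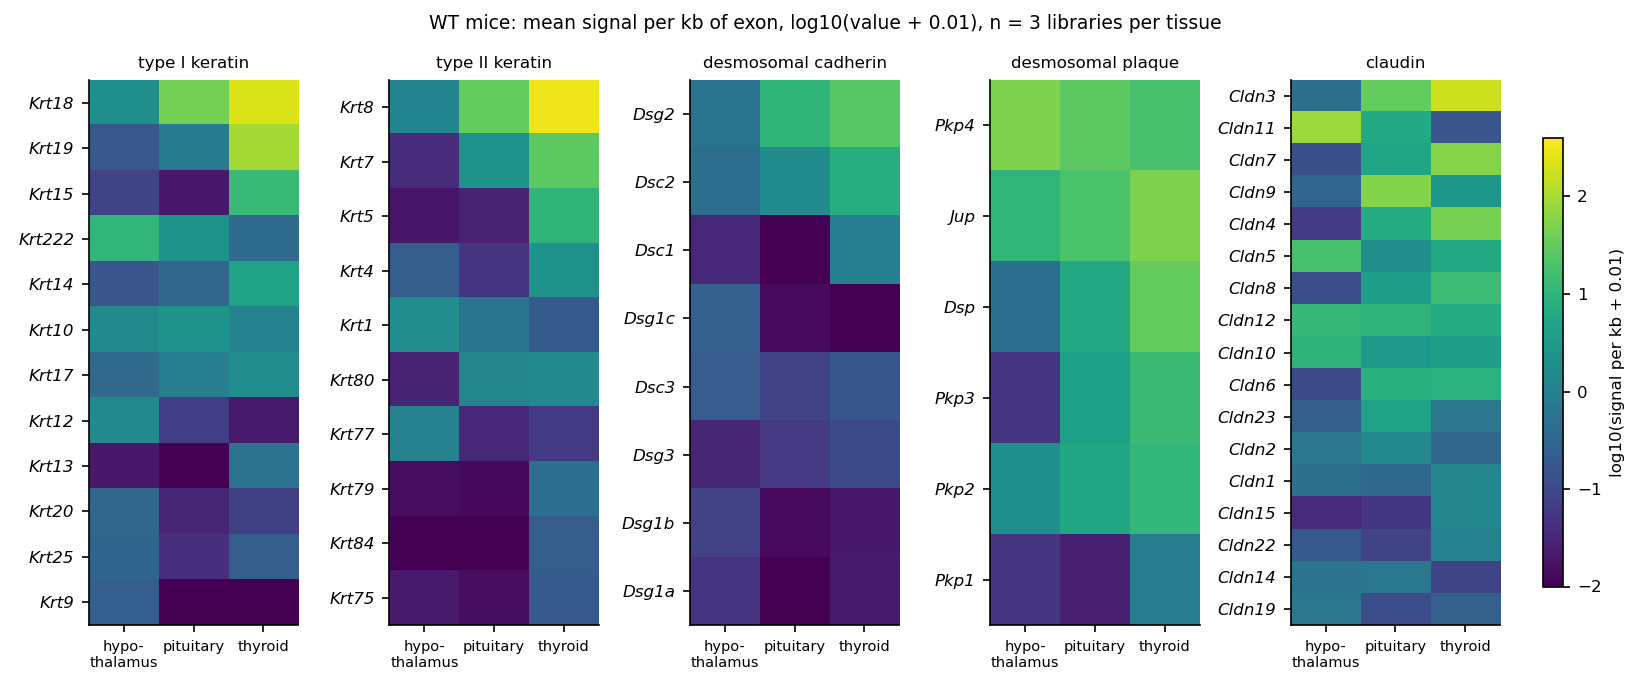
Mean signal per kb of exon in the 3 WT libraries of each tissue, on a log10 scale after adding 0.01, for the members with a mean signal of at least 0.5 in any tissue and an annotated exon length. Krt8, Krt18 and Cldn3 are brightest in thyroid, Cldn9 in pituitary and Cldn11 in hypothalamus.

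WT tissues were compared for the 55 members that passed the filter in any tissue. Since 13 of them passed in the thyroid alone, 6 in the hypothalamus alone and 0 in the pituitary alone, the counts of higher and lower members are in part set by the filter and are a description. Limma across all 18 libraries called 31 of the 55 members higher and 10 lower in thyroid than in pituitary (adjusted p under 0.05), where 37.2% and 38.7% of all genes tested were called. Against hypothalamus, 33 members were higher in thyroid and 17 lower (42.1% and 40.1% of all genes), and 21 were higher in pituitary than in hypothalamus and 17 lower (37.2% and 36.1% of all genes). Krt19 showed the widest gap between thyroid and pituitary, with a log2 difference of 6.44 (standard error 0.19, limma adjusted p = 8.66e-15). Krt7 was higher by 3.53, Krt8 by 3.18, Krt18 by 2.30, Cldn7 by 3.42 and Cldn4 by 2.69 on the same scale. The opposite order held for Cldn9, at -4.21, Cldn11, at -4, Cldn23, at -2.36, and Cldn14, at -1.59. When library totals were taken without the 10 most abundant genes, the median of all genes moved from -0.024 to -0.27 in this contrast, and 28 members were higher and 10 lower, with 4829 of all genes higher and 8362 lower in place of 6335 and 6579. Between pituitary and hypothalamus it moved from 0.013 to 0.25, with 8140 of all genes higher and 4776 lower in place of 6327 and 6145.

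K146Q mice were compared with WT mice in each tissue by limma on log2(signal + 0.5). Fold changes on this scale understate the change of genes with low signal. In the thyroid, 12 of the 48 members rose and 9 fell at an adjusted p under 0.05. Of all genes tested there, 19.7% rose and 17.9% fell, against 25% and 18.8% of the members. The median change of the members was -0.075, and that of all 15154 genes was -0.024. Groups did not overlap for 25 of the 48 members, 52.1%, and for 52.3% of all genes, so that members were separated by genotype about as often as other genes. When totals left out the 10 most abundant genes, 11 members rose and 11 fell, and of all genes 2478 rose and 3568 fell in place of 2979 and 2713. The count of members that fell was 4 without K146Q 62 or without K146Q 83 and 5 without WT 1. Of all genes, 1653 fell without K146Q 62, 2477 without K146Q 83 and 2112 without WT 1, in place of 2713. Without a filter on low values, the thyroid calls of Krt1, Krt7, Krt15, Krt18, Krt19, Krt84, Krt222, Dsc1, Dsc2 and Cldn1 ended (adjusted p 0.0713 to 0.163), and without the trend those of Krt15, Krt18 and Dsc1 (adjusted p 0.0519 to 0.0653). The counts include 6 members whose mean reached 0.5 in only 1 genotype. They passed the filter through that genotype alone, so that their values are a description. These were Dsg1a, Dsg1b and Cldn14 among those that rose and Krt1, Krt79 and Krt222 among those that fell. On the log2(signal + 0.5) scale Pkp1 and Cldn14 had the highest values and Krt15 the lowest. In bulk tissue, fewer cells of a type and less RNA per cell cannot be told apart.

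**Figure D2:**
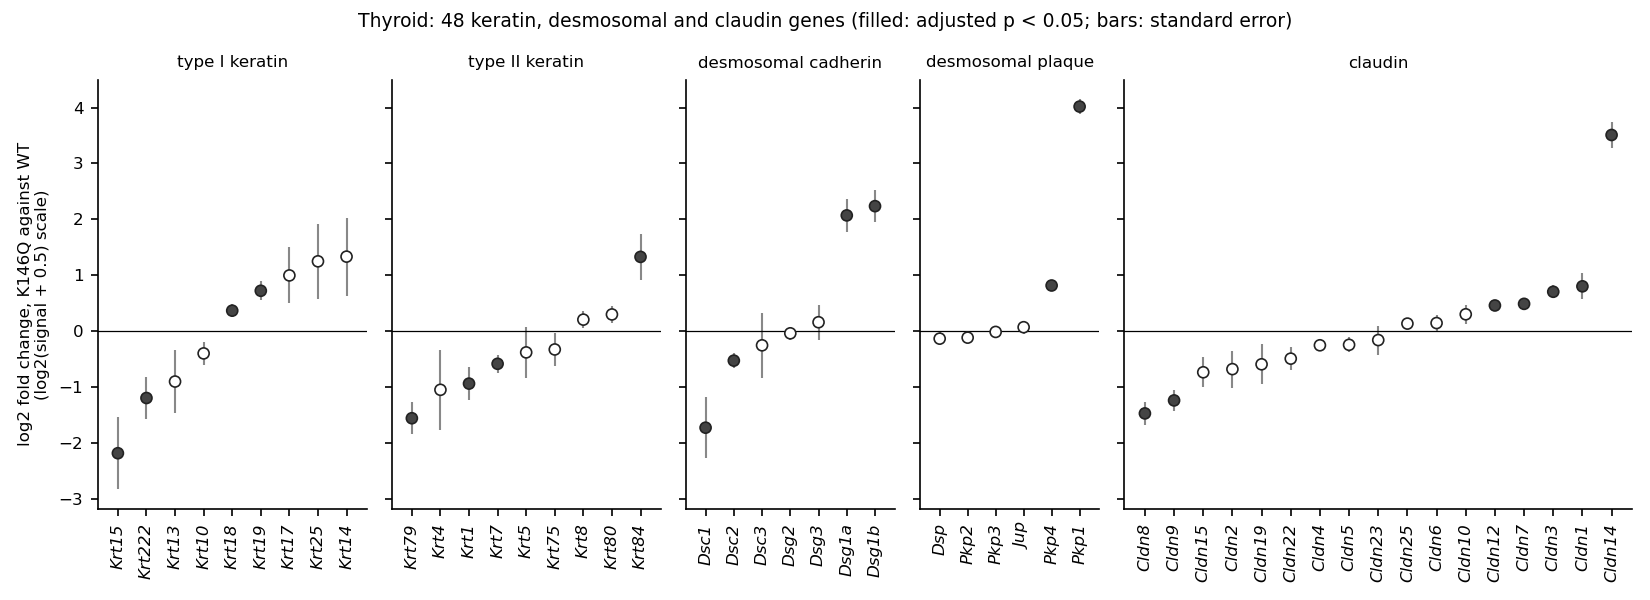
Log2 fold change of K146Q against WT thyroid (log2(signal + 0.5) scale) for the 48 members tested, in 5 classes and ordered by change, with the standard error as bars and filled points for an adjusted p under 0.05. Rises and falls occur within every class except the plaque genes, in which Pkp1 and Pkp4 rose and none fell.

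Simple epithelial keratins carried most of the keratin signal of the thyroid. Krt8, the type II keratin of simple epithelia, had a signal of 649, 474 and 656 in WT and 657, 645 and 735 in K146Q thyroid. These ranges overlapped, and the log2 fold change of 0.21 did not pass the test (standard error, SE, 0.15, limma adjusted p = 0.316). Its type I partner Krt18 had 355, 265 and 327 in WT and 402, 415 and 398 in K146Q mice. All K146Q libraries were above all WT libraries, with a log2 fold change of 0.37 (SE 0.12, limma adjusted p = 0.0459). The call ended when the totals left out the 10 most abundant genes (log2 fold change 0.27, adjusted p = 0.0717), under quantile normalization, with edgeR, and without K146Q 60, 62 or 83 or WT 2 or 43 (adjusted p 0.073 to 0.142).

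Krt19, a small type I keratin of simple and ductal epithelia, had 185, 132 and 217 in WT and 289, 285 and 293 in K146Q thyroid. It rose by 0.72 on the log2 scale (SE 0.17, limma adjusted p = 0.0128), and the lowest K146Q library stood above the highest WT library. Krt7, a type II keratin of ducts and glands, moved the other way. Its signal was 172, 192 and 218 in WT and 122, 164 and 107 in K146Q mice, a fall of 0.58 on the log2 scale (SE 0.16, limma adjusted p = 0.0274). WT 1 and K146Q 62 came close to each other, and the call ended without K146Q 60 or 83 or WT 2 or 43 (adjusted p 0.0582 to 0.0809). Summed per kb, type I keratins were at 365, 267 and 379.9 in WT and 474, 454 and 449 in K146Q thyroid, while type II keratins were at 370.3, 280.5 and 386 and 374, 359.9 and 400.5. The type I sums did not overlap between genotypes and the type II sums did.

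Keratins of stratified epithelia were far lower and differed between mice of 1 genotype. Krt5 and Krt14 form the filaments of basal cells. Krt5 was at 18.6, 18.8 and 29.6 in WT and 36.1, 9.23 and 13.7 in K146Q thyroid, and Krt14 at 5.81, 2.59 and 15.04 and 42.4, 9.99 and 10.3. K146Q 60 held the highest value of both, and neither passed the test (limma adjusted p = 0.545 and 0.171). Without K146Q 60, Krt5 was called lower, with a log2 fold change of -0.92 (adjusted p = 0.0381). Krt15, a basal keratin without a fixed partner, fell from 19.1, 11.1 and 35.1 to 10.4, 1.35 and 3.81, a log2 fold change of -2.18 (SE 0.64, limma adjusted p = 0.0321). The highest K146Q value, in mouse 60, was close to the lowest WT value, in mouse 2, and the call ended without K146Q 62 or 83 or WT 1 or 43 (adjusted p 0.0621 to 0.0871). The log2 fold change was -1.55 without K146Q 62 and -2.83 without K146Q 60.

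Krt79, a keratin of the hair follicle duct, was at 3.16, 1.96 and 1.62 in WT and 0.397, 0.235 and 0.645 in K146Q mice, a log2 fold change of -1.55 (SE 0.28). With a K146Q mean of 0.425, it passed the filter through the WT libraries alone, so that its values are a description. Krt84, a keratin of hard epithelial appendages, rose from 0.632, 0 and 1.083 to 1.69, 1.94 and 2.169. Its log2 fold change of 1.33 (SE 0.41, limma adjusted p = 0.0365) was not called by edgeR or DESeq2 (adjusted p = 0.112 and 0.0596) or with a pseudocount of 0.1 (0.0781). Its call also ended without K146Q 60, 62 or 83 or WT 1 (adjusted p 0.0533 to 0.101), and without WT 2 the log2 fold change was 0.86. Below a mean signal of 1, Krt222 and Krt1 had log2 fold changes of -1.19 and -0.94; these were added after their values were seen and, passing the filter through the WT libraries alone, are a description too. Krt222 lost its call without K146Q 60, 62 or 83 or WT 2 (log2 fold change -0.78 without WT 2, adjusted p 0.0621 to 0.109), and Krt1 without K146Q 62 or 83 or WT 1 or 2 (adjusted p 0.0961 to 0.129) and with edgeR and DESeq2 (adjusted p = 0.0635 and 0.0769).

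The mucosal keratins Krt4 and Krt13, also added after their values were seen, did not pass the test. Krt4 was at 5.62, 0.886 and 8.12 in WT and 3.62, 0.705 and 1.17 in K146Q mice, with WT 43 and WT 1 high, and was called lower once WT 2 was left out (log2 fold change -1.84, adjusted p = 0.0318). The suprabasal keratin Krt10, at 1.96, 2.78 and 2.35 and 1.69, 1.35 and 1.99, had a log2 fold change of -0.40 (limma adjusted p = 0.167).

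Squamous epithelium markers outside the keratins did not move as 1 group in the same libraries. Of 12 listed genes, 7 were tested, of which 1 rose and 1 fell. Sprr1a, a cornified envelope gene and the most abundant of the list in K146Q mice, rose from 1.39, 0.127 and 1.083 to 39.5, 35.6 and 56.7 (log2 fold change 5.14, limma adjusted p = 0.000149). Trp63, the basal cell factor and the most abundant of the list in WT mice, fell from 23.6, 21.0 and 23.7 to 12.4, 12.2 and 13.2 (log2 fold change -0.83, limma adjusted p = 0.000876). Sprr1b and Calm4 had no read in any thyroid library, and Krtdap, Sprr3 and Ivl had means below 0.5 and were not tested. The list summed to 30.2, 29.8 and 33.1 in WT and 62.8, 57.9 and 78.5 in K146Q thyroid. Airway epithelium markers summed to 814, 149.7 and 349.5 and 523, 275 and 218, led by Bpifa1, with Tekt1 the only 1 of 8 called. Thymus epithelium markers summed to 4.36, 39.99 and 4.03 and 13.1, 9.81 and 8.56, with none of 4 called and WT 2 highest. The part of these cells in the keratin values was not tested.

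**Figure D3:**
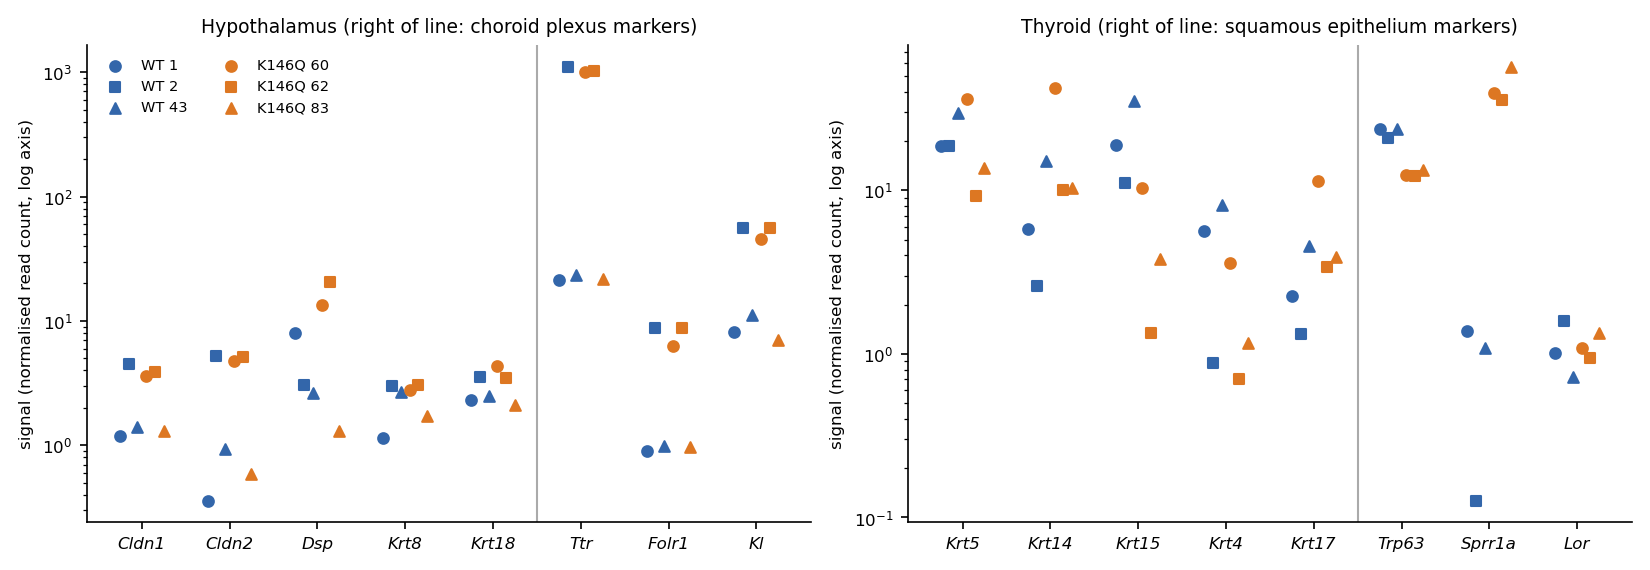
Signal of each library (log axis) for members that differ between mice of 1 genotype, beside cell type markers. In hypothalamus, WT 2, K146Q 60 and K146Q 62 are high for Cldn1, Cldn2, Ttr, Folr1 and Kl; in thyroid, K146Q 60 is highest for Krt5, Krt14 and Krt17, while Trp63 is lower and Sprr1a higher in all K146Q libraries.

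Among desmosomal plaque genes, Pkp1 and Pkp4 rose. Pkp1 encodes plakophilin 1, a plaque protein typical of stratified epithelia, and its gene spans 135871395 to 135919207 of chromosome 1 (build GRCm38). Its thyroid signal was 3.47, 4.49 and 4.63 in WT and 79.1, 75.7 and 70.8 in K146Q mice. With means of 4.20 ± 0.632 and 75.2 ± 4.17 (SD, n = 3), the K146Q level was 17.9 times the WT level, and the log2 fold change was 4.02 (SE 0.13, limma adjusted p = 7.89e-06). The call held with every alternative setting and with each library left out, with log2 fold changes between 3.88 and 4.17.

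Pkp4, a plakophilin relative found in desmosomes and adherens junctions, rose less but from a high level. Its thyroid signal was 108, 111 and 95.1 in WT and 187, 173 and 195 in K146Q mice, a log2 fold change of 0.82 (SE 0.090, limma adjusted p = 0.000551) that held in every alternative. The remaining 4 plaque genes did not pass the test. Desmoplakin (Dsp), which ties keratin to the plaque, had 334, 327 and 295 in WT and 250.1, 299 and 326 in K146Q thyroid, a log2 fold change of -0.13 (SE 0.12). Plakoglobin (Jup) had 338, 265 and 331 and 320.4, 318 and 338, with a log2 fold change of 0.073 (SE 0.11). Pkp2 was at 58.9 ± 4.88 and 54.3 ± 2.52 (SD, n = 3) and Pkp3 at 48.5 ± 3.96 and 47.996 ± 1.58, and all 4 had overlapping groups. Per kb of exon, the WT level of Pkp1 was 0.836 ± 0.126 (SD, n = 3), against 10.99 ± 0.910 for Pkp2 and 13.4 ± 1.09 for Pkp3. In K146Q thyroid it was 14.96 ± 0.831, against 10.1 ± 0.470 and 13.3 ± 0.436, so that Pkp1 went from the lowest of the 3 to the highest mean.

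Desmosomal cadherins lie in 1 gene cluster on chromosome 18. Dsg2, the desmoglein of simple epithelia and heart, did not pass the test, at 210.0, 191 and 219 in WT and 182, 193 and 233 in K146Q thyroid (log2 fold change -0.037, SE 0.11, limma adjusted p = 0.823). Dsg1b, a desmoglein of differentiated stratified epithelium, had 2 reads in all 3 WT libraries and 115 in the K146Q libraries. The ratio of K146Q to WT was 51.2, with an exact 95% interval from 13.8 to 428 that covers counting error only. For Dsg1a, added after its values were seen since its mean lies below 1, the reads were 3 and 104, a ratio of 30.8 (95% interval 10.3 to 152). Both passed the filter only through the K146Q libraries, so that their values are a description. Dsg1a, Dsg1b and Dsg1c are near-identical copies, so that the share of each is uncertain. Together they held 0, 5 and 0 reads in WT and 85, 64 and 70 in K146Q thyroid.

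Of the desmocollins next to them, Dsc1 and Dsc2 fell and Dsc3 did not pass the test. Dsc1, the desmocollin of upper epidermal layers, had 6.50, 6.26 and 1.083 in WT and 0.595, 0.823 and 0.938 in K146Q mice, a fall of 1.72 on the log2 scale (SE 0.55, limma adjusted p = 0.0409). WT 43 lay close to the K146Q libraries, and the call ended when any library but WT 43 was left out (adjusted p 0.0845 to 0.113). The log2 fold change was -1.36 without WT 1 and -2.43 without WT 43. Dsc2, the widely expressed desmocollin, fell from 40.2, 36.3 and 39.6 to 25.5, 22.7 and 33.0, by 0.52 on the log2 scale (SE 0.14, limma adjusted p = 0.0223), and lost its call without K146Q 60 or 62 or WT 1 or 43 (adjusted p 0.0573 to 0.0770). Dsc3, named after its values were seen, was at 0.126, 2.02 and 0.421 in WT and 1.24, 0.235 and 0.176 in K146Q mice with overlapping groups (log2 fold change -0.25, SE 0.58, limma adjusted p = 0.762). Between Dsc1 and Dsg1a lie 196 kb, and between Dsc2 and Dsc1 24.6 kb.

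**Figure D4:**
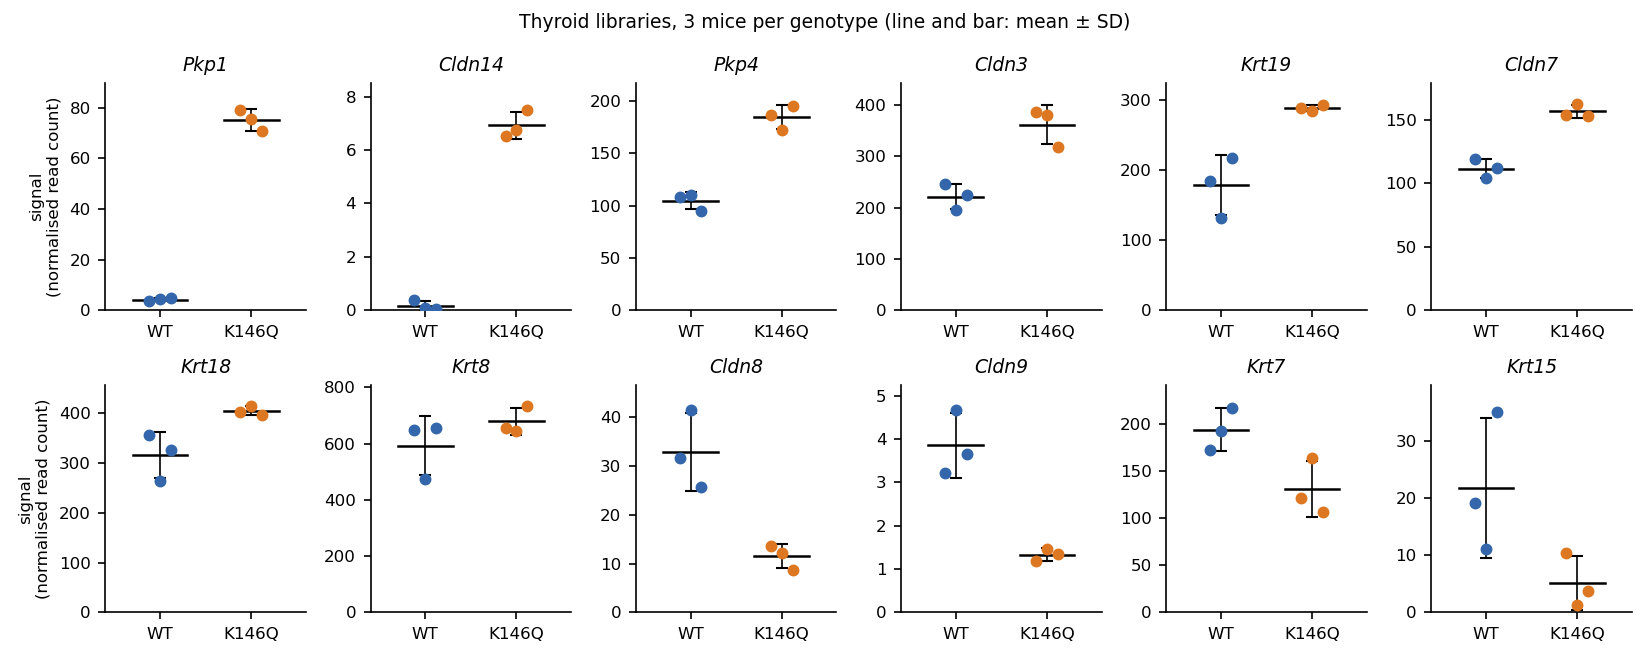
Thyroid signal of 12 members in each of the 3 WT and 3 K146Q libraries, with mean and SD; each panel has its own linear axis from 0. Pkp1, Cldn14, Pkp4, Cldn3, Krt19 and Cldn7 are higher in every K146Q library, Krt8 overlaps, and Cldn8, Cldn9, Krt7 and Krt15 are lower.

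Of 17 claudins tested in thyroid, 5 rose, 2 fell and 10 did not pass the test, which is 29.4% and 11.8% against 19.7% and 17.9% of all genes. Cldn14, a claudin known from the inner ear and kidney tubule, was near the floor in WT thyroid at 0.379, 0.0633 and 0.0601 and reached 6.54, 6.76 and 7.50 in K146Q thyroid. The reads were 8 in the WT and 375 in the K146Q libraries, and the log2 fold change was 3.51 (SE 0.23). Cldn14 passed the filter only through the K146Q libraries, so that its values are a description. Cldn3, Cldn7, Cldn1 and Cldn12 also rose. Cldn3, a claudin of simple epithelia, went from 245, 195 and 224 to 386, 381 and 318, with a log2 fold change of 0.71 (SE 0.12, limma adjusted p = 0.00349). Cldn7 was at 119, 104 and 112 in WT and 154, 163 and 153 in K146Q mice, a log2 fold change of 0.49 (SE 0.080, limma adjusted p = 0.00288). For both genes no K146Q library fell within the WT range.

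Cldn1 rose from 8.90, 5.88 and 4.93 to 12.99, 9.23 and 12.7, with a log2 fold change of 0.80 (SE 0.23, limma adjusted p = 0.0295). K146Q 62 and WT 1 almost met, and the call ended without K146Q 60 or 83 or WT 2 or 43 (adjusted p 0.0741 to 0.0912). Cldn12, found in intestine and kidney tubule, rose from 30.4, 28.6 and 27.5 to 41.0, 41.2 and 37.5 (log2 fold change 0.46, SE 0.086, limma adjusted p = 0.00517).

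Cldn8 and Cldn9 fell. Cldn8, a claudin of the kidney collecting duct and distal gut, had 31.6, 41.5 and 25.7 in WT and 13.6, 12.2 and 8.79 in K146Q thyroid, a fall of 1.47 on the log2 scale (SE 0.21, limma adjusted p = 0.00173). Cldn9 fell from 3.22, 4.68 and 3.67 to 1.19, 1.47 and 1.35, by 1.24 (SE 0.19, limma adjusted p = 0.00235). Both groups were fully separated, and both calls held in every alternative. Its neighbour Cldn6, whose gene lies 0.137 kb away and which was added after its values were seen, had 11.9, 16.6 and 15.5 in WT and 15.2, 17.9 and 15.4 in K146Q mice, which did not pass (log2 fold change 0.15, limma adjusted p = 0.471).

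Cldn4, a claudin of simple epithelia that lies 39.3 kb from Cldn3 on chromosome 5, did not share the rise of its neighbour. It had 90.9, 79.3 and 80.7 in WT and 69.9, 75.2 and 65.5 in K146Q thyroid, a log2 fold change of -0.25 (SE 0.089, limma adjusted p = 0.0608). The groups did not overlap. Cldn4 was called lower under quantile normalization (adjusted p = 0.0429) and when totals left out the 10 most abundant genes (log2 fold change -0.35, adjusted p = 0.017). Cldn10, Cldn5 and Cldn2 did not pass the test, with log2 fold changes of 0.30, -0.24 and -0.68 (limma adjusted p = 0.195, 0.199 and 0.144). With single libraries left out, Cldn10 lay between 0.188 and 0.444 and Cldn2 between -0.865 and -0.36, and neither was called.

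The 250 bases before a gene start are shown for 4 genes, since Cldn3 and Cldn4 are neighbours that differed in K146Q thyroid, Cldn14 had the highest thyroid log2 fold change of the claudins, and Pkp4 changed in opposite directions in thyroid and pituitary. They are from RefSeq on GRCm38.p6, which held 56 of the 88 members, and read 5′ to 3′ on the gene's own strand. The table lists 3 starts for Cldn14 and 2 for Pkp4; the one nearest the annotated 5′ end of the gene was used, and motif positions hold for that start only. Capitals mark exact matches on either strand to 4 short motifs. These were the CRE half-site, spelled TGACG. The nuclear receptor half-site was spelled AGGTCA. The TATA box was spelled TATAAA. The GC box was spelled GGGCGG. Cldn3 is at chr5:134985964-134986213 on the + strand, Cldn4 at chr5:134946935-134947184 on the - strand, Cldn14 at chr16:94008838-94009087 on the - strand, and Pkp4 at chr2:59160600-59160849 on the + strand.
Cldn3: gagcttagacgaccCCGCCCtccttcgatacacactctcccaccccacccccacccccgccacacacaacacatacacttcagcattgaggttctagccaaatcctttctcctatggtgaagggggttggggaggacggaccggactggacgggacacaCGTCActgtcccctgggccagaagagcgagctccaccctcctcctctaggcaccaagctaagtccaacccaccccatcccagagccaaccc
Cldn4: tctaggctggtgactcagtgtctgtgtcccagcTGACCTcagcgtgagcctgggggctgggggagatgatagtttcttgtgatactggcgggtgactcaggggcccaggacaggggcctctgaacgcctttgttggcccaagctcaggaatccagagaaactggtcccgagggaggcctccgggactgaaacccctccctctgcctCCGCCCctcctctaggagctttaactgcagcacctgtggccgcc
Cldn14: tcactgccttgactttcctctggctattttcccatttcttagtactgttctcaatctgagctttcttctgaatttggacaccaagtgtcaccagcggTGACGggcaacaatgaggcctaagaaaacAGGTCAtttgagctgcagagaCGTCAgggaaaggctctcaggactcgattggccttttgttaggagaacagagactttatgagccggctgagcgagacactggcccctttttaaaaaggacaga
Pkp4: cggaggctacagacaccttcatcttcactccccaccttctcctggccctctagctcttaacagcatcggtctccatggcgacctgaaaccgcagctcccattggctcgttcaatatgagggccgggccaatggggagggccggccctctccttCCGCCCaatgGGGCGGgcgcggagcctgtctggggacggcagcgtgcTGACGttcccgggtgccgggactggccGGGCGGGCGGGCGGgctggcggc
The Cldn3 window held 1 TGACG on the other strand, 91 bases before the start, and 1 GC box. Cldn4 held 1 AGGTCA and 1 GC box and no TGACG. Cldn14 held TGACG at 2 places, 153 and 103 bases before the start, with 1 AGGTCA between them at 124 bases, and no GC box. Pkp4 held 1 TGACG at 50 bases and 5 GC boxes, 3 of which overlap. No window held TATAAA. Among 32851 windows of this length, 17.8% held the CRE half-site, 14% the receptor half-site, 12.4% the TATA box and 32.7% the GC box. A match describes letters and not a bound site.

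Other junction genes of the thyroid were counted from lists chosen by their role. Of 15 adherens junction genes, 7 rose and none fell, where 19.7% of all thyroid genes rose and 17.9% fell, with a median log2 fold change of 0.35. They included E-cadherin (Cdh1), which rose by 0.53, and 3 of 4 nectins, of which Nectin1 rose most, from 13.96, 12.3 and 13.4 to 44.3, 46.4 and 40.6 (log2 fold change 1.69, limma adjusted p = 5.5e-05). Nectin2 did not pass (log2 fold change 0.35, limma adjusted p = 0.0656). Of 6 hemidesmosome and epithelial laminin genes, 3 rose, with Itgb4 at 0.93 and Lamb3 at 0.91 on the log2 scale. Of 20 tight junction partners, 5 rose and 3 fell. F11r, which encodes JAM-A, rose by 0.67, whereas occludin (Ocln) fell by 0.35, Jam3 by 0.73 and Pard3 by 0.52. Of 7 plakins and desmosome-associated genes, 4 rose, among them Eppk1 at 1.11, and Dst and Perp fell by 0.76 and 0.27. Other intermediate filaments gave 5 rises among 11 tested, including vimentin (Vim) at 1.01, and falls of Nefh and Ina. With means of 1.16 in WT and 0.370 in K146Q mice, Ina passed the filter through the WT libraries alone, so that its values are a description. Adjusted p-values of the genes named here as rising or falling were between 5.5e-05 and 0.0385 by limma, and the median change of all genes was -0.024.

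Markers of other cells differed between the same thyroid libraries. Gland secretion genes were called higher for 3 of 3 tested of 11 listed. Dcpp1, the most abundant, went from 15.7, 0.443 and 14.9 to 778, 881 and 631. The casein gene Csn2 went from 0, 0.0633 and 0.0601 to 17.5, 12.8 and 17.3. Csn2 passed the filter only through the K146Q libraries, so that its values, counted among the 3, are a description. The list summed to 16.5, 0.886 and 16.4 in WT and 817, 938 and 677 in K146Q mice, while Smr3a, Bpifa2, Pip and Wap had no read in any library. Parathyroid markers fell for 3 of 3 genes, summing to 3454, 6409 and 4129 and 1569, 523 and 622 with Pth most abundant. Among C cell markers 2 of 3 fell and 1 rose, with sums of 2227, 2165 and 2673 and 351, 223 and 207 led by Calca. Adipocyte markers fell for 5 of 5, from 718, 687 and 768 to 193, 113 and 97.4 with Fabp4 most abundant. Of 6 proliferation genes all rose, with sums of 119.9, 90.8 and 122 and 238, 232 and 286 led by Pcna, and 4 of 5 leukocyte genes tested rose, of which Csf1r, the most abundant, went from 60.4, 47.5 and 59.8 to 111, 109 and 117. Among follicular cell markers 3 of 10 rose and 2 fell. Their part in the member values was not tested.

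In the pituitary, 3 of 33 members (Dsg1b, which passed the filter only through the K146Q libraries, among them) rose and 2 fell, against 6.33% and 3.48% of all 15520 genes tested. The members' median log2 fold change was -0.050 and that of all genes -0.0093. Groups did not overlap for 17 members, 51.5%, and for 31% of all genes. Without K146Q 60, 1 member rose and 1 fell, and without WT 1, 5 rose and 2 fell. Of all genes, 454 rose and 177 fell without K146Q 60, and 915 rose and 427 fell without WT 1, in place of 982 and 540. Without a filter on low values, the calls of Cldn5, Cldn11, Dsg2 and Pkp4 ended (adjusted p 0.0556 to 0.124), and without the trend those of Dsg2 and Pkp4 (adjusted p = 0.102 and 0.0787). When totals left out the 10 most abundant genes, 2 members rose and 5 fell, and of all genes 827 rose and 875 fell in place of 982 and 540. Cldn5, the claudin of endothelial cells, rose from 2.31, 2.29 and 3.36 to 6.66, 4.59 and 5.52, with a log2 fold change of 0.95 (SE 0.19, limma adjusted p = 0.0138). Among 6 endothelial markers, Pecam1 alone rose (log2 fold change 0.45, limma adjusted p = 0.0102). That list summed to 272, 280.2 and 287 in WT and 317, 314 and 313 in K146Q pituitary with Kdr most abundant, and its part was not tested. Without K146Q 60, the Cldn5 call ended (log2 fold change 0.83, adjusted p = 0.0714).

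Cldn11 fell in the pituitary, from 13.8, 11.7 and 11.1 to 7.95, 8.27 and 7.17, by 0.61 on the log2 scale (SE 0.13, limma adjusted p = 0.0164; adjusted p = 0.0641 without K146Q 60). None of 5 oligodendrocyte markers tested was called there, and they summed to 87.4, 81.9 and 120.2 and 87.5, 76.5 and 87.6, led by Mbp. Dsg2 rose from 88.2, 86.7 and 79.2 to 112, 102 and 99.4, a log2 fold change of 0.30 (SE 0.078, limma adjusted p = 0.0415) that lost its call without K146Q 60, 62 or 83 or WT 2 or 43 (adjusted p 0.0568 to 0.196) and when totals left out the 10 most abundant genes (adjusted p = 0.0778). Pkp4 fell from 155, 161 and 153 to 123, 127 and 133, by 0.29 (SE 0.066, limma adjusted p = 0.0248), a call that ended without K146Q 60 or 62 or WT 2 (adjusted p 0.0571 to 0.13). Groups did not overlap for Cldn5, Cldn11, Dsg2 or Pkp4. Dsg1b, added after its values were seen, had 1 read in WT and 66 in K146Q pituitary, a ratio of 64.4 with an exact 95% interval from 11.2 to 2583 that is a description for the reason given above, and the 3 Dsg1 copies together had 2, 0 and 0 reads in WT and 29, 35 and 33 in K146Q mice. Of 3 squamous epithelium markers tested there 2 rose, Trp63 by 1.55 and Lor by 0.65, and the list summed to 9.25, 9.89 and 9.06 in WT and 11.8, 14.4 and 12.5 in K146Q mice with Lor most abundant; its part was not tested.

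The simple keratins of the pituitary had negative log2 fold changes that did not pass the test. Krt18 was at 61.1, 66.9 and 61.5 in WT and 56.7, 50.3 and 41.0 in K146Q mice (log2 fold change -0.36, limma adjusted p = 0.0782), and was called when totals left out the 10 most abundant genes (-0.42, adjusted p = 0.0455). Krt8 was at 63.7, 72.6 and 57.4 and 54.0, 54.4 and 50.8 (log2 fold change -0.28, limma adjusted p = 0.103). Krt7 had a log2 fold change of -0.53 (limma adjusted p = 0.0853) and was called by DESeq2 (adjusted p = 0.0331) and without K146Q 83 or WT 43 (adjusted p = 0.0399 and 0.0415). Cldn3, at 40.1, 43.98 and 37.4 and 33.6, 32.2 and 33.9, had -0.28 (limma adjusted p = 0.0778; 0.042 when totals left out the 10 most abundant genes). Cldn4 and Cldn2 had positive values of 0.63 and 0.47 (limma adjusted p = 0.102 and 0.0763), and both were called without WT 1 (0.88 and 0.59, adjusted p = 0.0228 and 0.0449). DESeq2 also called Cldn4 (log2 fold change 0.61, adjusted p = 0.0371). Cldn9, the highest member of this tissue per kb, was at 74.5, 84.8 and 78.9 and 91.3, 87.2 and 93.7 (log2 fold change 0.19, limma adjusted p = 0.146).

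Dsp, Jup, Pkp2 and Pkp3 were not called in pituitary, with log2 fold changes of -0.21, 0.058, 0.13 and -0.27, and neither were Dsc2, Krt10, Krt14, Krt19, Cldn1, Cldn7, Cldn8, Cldn10 and Cldn12, which lay between -0.33 and 0.31. Among partner genes of the pituitary, 1 of 14 adherens junction genes rose (Epcam), 1 of 20 tight junction partners rose (Jam3, 0.79, limma adjusted p = 0.000456) and 2 fell (Cgnl1, -0.71, adjusted p = 0.00112, and Amotl2). Of 7 plakins 2 fell, Perp by 0.51 and Dst by 0.37, and none of 6 hemidesmosome genes was called. The neurofilament genes Nefl, Nefm and Nefh rose among 12 other intermediate filament genes, and of 5 neuron markers Syt1 and Snap25 rose and Tubb3 fell, with sums of 597, 537 and 547 in WT and 838, 798 and 773 in K146Q mice.

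Markers of other cells differed between the same pituitary libraries. Of 4 leukocyte genes tested 3 rose, with sums of 45.6, 42.8 and 50.4 in WT and 111, 90 and 72.3 in K146Q mice and Csf1r most abundant. Among 7 hormone cell markers, of which Gh was most abundant, Tshb and Cga rose and Prl fell. Tshb, the beta subunit of thyrotropin, went from 539, 235 and 593 to 8183, 7166 and 5600.2 (log2 fold change 4.03, limma adjusted p = 9.9e-05). Single genes of other lists also rose, namely Casr, Ttr, Fabp4 and Bpifa2. None of 5 stem and folliculostellate cell markers was called. The part of these cells in the member values was not tested.

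No member was called in the hypothalamus, where 0% of 15690 genes passed by limma or edgeR, 641 genes had an unadjusted p under 0.05 by limma, and DESeq2 called 9 genes and no member. Among the 30 members, 2 had an unadjusted p under 0.05, Krt9 and Dsg1c. These were also the only members whose groups did not overlap, 6.67% against 9.15% of all genes. Both were named after their values were seen, with Krt9 at 0.716, 0.578 and 0.464 in WT and 1.39, 1.15 and 1.45 in K146Q mice (limma adjusted p = 0.998). Abundant members had log2 fold changes close to 0. Cldn11 was at 151 ± 9.43 in WT and 156 ± 10.5 in K146Q mice (SD, n = 3), with a log2 fold change of 0.042 (SE 0.060), Pkp4 at 294 ± 11.6 and 302 ± 2.173 (0.041, SE 0.040), and Cldn5 at 25.7 ± 2.21 and 25.2 ± 2.89 (-0.027, SE 0.094).

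Some hypothalamic members differed between mice more than between genotypes. Cldn2, a claudin that lets cations pass, was at 0.358, 5.26 and 0.928 in WT and 4.77, 5.10 and 0.592 in K146Q mice, and Cldn1 at 1.19, 4.51 and 1.39 and 3.62, 3.85 and 1.29. WT 2, K146Q 60 and K146Q 62 were high for both. The same 3 libraries were high for the choroid plexus markers Ttr, at 21.4, 1098 and 23.5 and 1006, 1029 and 21.7, Folr1, at 0.895, 8.84 and 0.986 and 6.34, 8.71 and 0.968, and Kl. The whole list of 6 genes summed to 54.8, 1189 and 62.6 and 1082, 1118 and 55.2, all 6 were tested and none was called. Without WT 2 the log2 fold change of Cldn2 was 1.52 in place of 0.73, and it did not pass the test (limma adjusted p = 0.96). Desmoplakin followed another pattern, at 7.995, 3.06 and 2.61 in WT and 13.3, 20.6 and 1.29 in K146Q mice, high in K146Q 62, K146Q 60 and WT 1. Meninges and fibroblast markers summed to 79.9, 82.5 and 87.7 and 96.3, 92.9 and 82.6. The part of these cells was not tested.

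Genotype effects were compared between tissues with all 18 libraries in 1 limma fit. Each gene had 1 estimate of its spread over all tissues, also those in which it lay below the filter. The effect differed between thyroid and pituitary for 23 of the 55 members, 41.8%, against 34% of all 17011 genes. It differed between thyroid and hypothalamus for 17 members, 30.9% against 31% of all genes, and between pituitary and hypothalamus for 3, 5.45% against 3.21%. The last count was 0 without mouse 60 or without mouse 2 and 1 without mouse 62 or without mouse 1. Over all genes, that comparison had 386 higher and 160 lower. These became 185 and 49 without mouse 60, 285 and 108 without mouse 2, 206 and 51 without mouse 62, and 294 and 105 without mouse 1. Comparisons with the thyroid share its 6 libraries. With the mouse as a replicate block, Cldn7 and Cldn22 were also called between thyroid and hypothalamus (adjusted p = 0.0472 and 0.0439) and Pkp4 between pituitary and hypothalamus (adjusted p = 0.0422). Pkp4 was called up in thyroid and, with the limits given above, down in pituitary, with a difference of 1.11 (SE 0.090, limma adjusted p = 1.16e-07). For Cldn14 the effects were 3.51 in thyroid and -0.83 in pituitary, and the difference was 4.34 (SE 0.29, limma adjusted p = 1.27e-08). Its pituitary signal was 1.47, 1.26 and 1.71 in WT and 0.980, 0.510 and 0.401 in K146Q mice. Both genotypes had Cldn14 means of at least 0.5 in pituitary and hypothalamus, so that its place in this fit did not rest on K146Q thyroid. Its thyroid effect alone remains a description, for the reason given above. In pituitary alone, Cldn14 missed the threshold (limma adjusted p = 0.055) and was called lower without K146Q 60 (log2 fold change -1.05, adjusted p = 0.0384), under quantile normalization and when totals left out the 10 most abundant genes (adjusted p = 0.0494 and 0.0422).

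Pkp1, which in WT pituitary and hypothalamus averaged 0.0783 and 0.213, rose in thyroid by 4.12 more than in pituitary and by 4.20 more than in hypothalamus (limma adjusted p = 2.46e-08 and 2.55e-08). Between thyroid and pituitary, Cldn8, Cldn9 and Cldn5 had differences of -1.78, -1.43 and -1.19 (limma adjusted p = 0.000394, 6.51e-05 and 0.000375). Cldn3, Cldn7 and Krt19 had differences of 0.98, 0.79 and 0.90 (limma adjusted p = 0.0159, 0.00098 and 0.0173). Without mouse 62 in any tissue, 13 members in place of 23 differed between thyroid and pituitary. Calls over all genes dropped too, to 1990 higher and 2108 lower in place of 2797 and 2979.

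**Figure D5:**
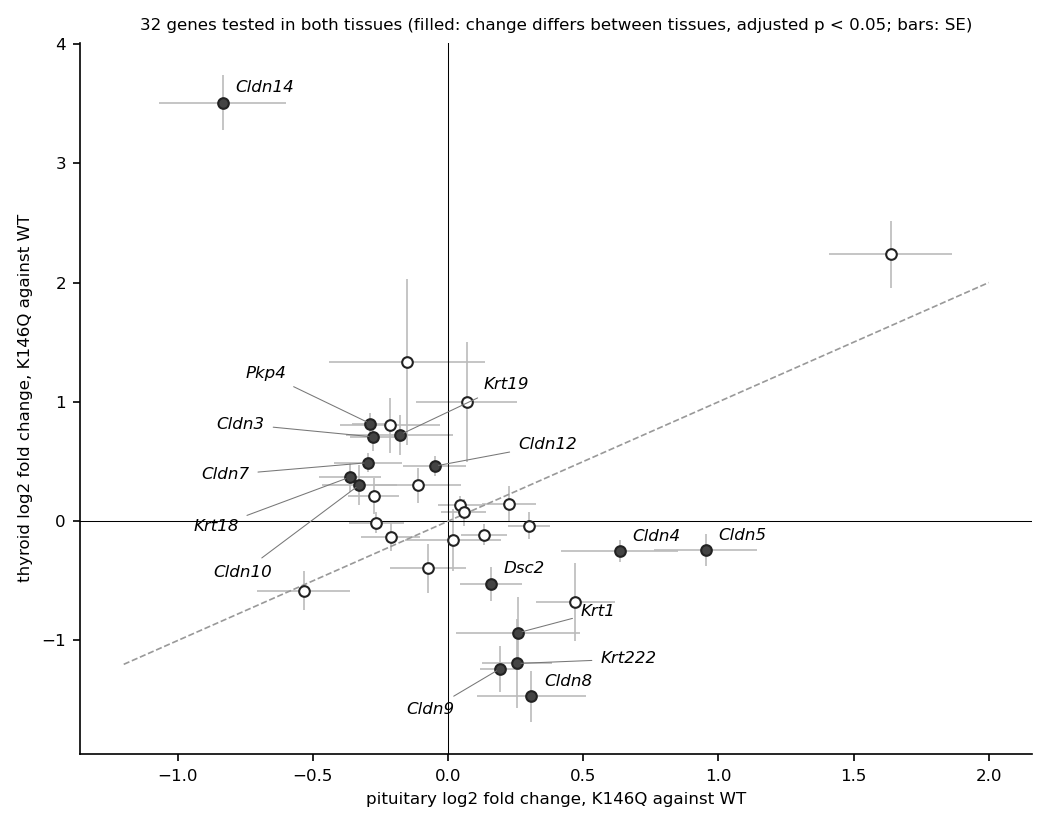
Log2 fold change of K146Q against WT in pituitary (horizontal) and thyroid (vertical) for the 32 members tested in both, with standard errors; the dashed line marks equal change, and filled, named points are the 15 whose change differed between the tissues (adjusted p under 0.05). Cldn14 lies at the upper left, and Cldn8 and Cldn9 at the lower right.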

How the data were processed

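The authors deposited 1 table per tissue with a signal for each gene and library, reads divided by a scaled library total. Per the labels, reads were made with bcl2fastq 2.17 and handled with Bowtie2 2.1.0 and RSEM 1.2.15 on mm10; the annotation and strandedness are not given in the sources used here. The authors' own log2 fold changes, average log2 CPM, test score and p-values in the same tables were not used. There were 0 per-sample columns outside the 18 libraries. Dividing each signal by the value of 1 read gave whole reads for 100% of values, and no pair of libraries of 1 group agreed within sampling noise (lowest chi-square per degree of freedom 6.11).

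Values were tested as log2(signal + 0.5) with limma 3.58.1 (R 4.3.3, trend), over all genes with a mean of at least 0.5. Benjamini-Hochberg adjustment ran over all of them, with 0.05 as threshold. The same test was run on simulated counts with 1 fixed spread for every gene and no change placed in genes of low signal. That run cannot give the error rate in these data, whose spread differs. Within a tissue the fit used its 6 libraries; between tissues it used all 18. Recovered read counts were also tested with edgeR 4.0.16 and DESeq2 1.42.0, and pseudocounts, filters, scaling and left-out libraries were varied. P-values within a tissue measure the spread between 3 mice per genotype. Those between tissues rest on 1 estimate of the spread per gene over all 6 groups. There, libraries of the same mouse count as independent, except with the mouse as a replicate block. Intervals and floors cover counting error only. The same mouse numbers occur in all tissues, and the series text gives 3 mice per genotype as their source, so that numbers pair libraries across tissues. Deviations of same-numbered libraries correlated between -0.0295 and 0.175 (median 0.0834, 18 pairs, 3 over 0.1), and in 10 of the 18 comparisons the same-numbered library correlated best.

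Members and gene lists were chosen with earlier results of these data known. Named with values were the called members with a mean of at least 1 and groups that did not overlap, up to the 12 largest rises and falls per tissue, a fixed set of common epithelial members and the 5 highest per kb in each WT tissue. All other members named were chosen after their values were seen.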

Additional observations from a re-analysis of the deposited data

Results flagged for a closer look

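The genotype effect on single members differed between tissues. Values are differences of log2 fold changes in the limma fit over 18 libraries, and comparisons that include the same tissue share its libraries. Between thyroid and pituitary, the effect was higher in thyroid for Cldn14 (4.34), Pkp1 (4.12), Krt84 (1.24), Pkp4 (1.11), Cldn3 (0.98), Krt19 (0.90), Cldn7 (0.79), Krt18 (0.73), Cldn10 (0.63) and Cldn12 (0.51), and for Dsg1a (1.06). It was lower in thyroid for Krt15 (-2.13), Cldn8 (-1.78), Dsc1 (-1.72), Krt79 (-1.51), Cldn9 (-1.43), Cldn5 (-1.19), Cldn4 (-0.89) and Dsc2 (-0.68), and for Krt222 (-1.45), Krt1 (-1.19), Cldn15 (-1.01) and Cldn22 (-0.78). Adjusted p-values were between 1.27e-08 and 0.0445. Between thyroid and hypothalamus, the effect was higher in thyroid for Pkp1 (4.20), Cldn14 (3.53), Dsg1b (1.97), Krt84 (1.33), Cldn3 (0.86), Krt19 (0.85), Pkp4 (0.78), Cldn12 (0.45) and Dsg1a (1.86) and lower for Krt15 (-2.18), Dsc1 (-1.59), Krt79 (-1.55), Cldn8 (-1.35), Cldn9 (-0.995), Krt222 (-1.23), Krt1 (-1.10) and Krt9 (-0.76), with adjusted p between 2.55e-08 and 0.0339. Between pituitary and hypothalamus, it was higher in pituitary for Dsg1b (1.37) and Cldn5 (0.98), and lower for Krt9 (-0.71), with adjusted p = 0.0149 for Cldn5 and 0.0396 for Krt9; no member was called without mouse 60 or without mouse 2, and 1 without mouse 62 or without mouse 1. The fit takes 1 spread per gene from all tissues. Krt9 passed the filter in hypothalamus alone, and Krt15, Krt79, Krt84, Dsc1, Dsg1a, Pkp1, Cldn15 and Cldn22 in thyroid alone. Their adjusted p-values here therefore do not measure the spread of that tissue alone. Within those tissues, Krt9, Cldn15 and Cldn22 were not called. For Dsc1, Dsc2, Krt1, Krt15, Krt18, Krt84 and Krt222, calls within the thyroid ended when single libraries were left out. Dsg1a rests on 3 WT reads in thyroid and Dsg1b on 2 in thyroid and 1 in pituitary, and both passed the filter there only through the K146Q libraries. Krt79 passed it only through the WT thyroid libraries. The differences of these 3 genes are a description. Cldn14, Krt1 and Krt222 also passed the thyroid filter through 1 genotype alone. In pituitary and hypothalamus both genotypes had means of at least 0.5 for them, so that their place in this fit did not rest on it. Their thyroid effects alone remain a description.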

How the results depend on the processing

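No member changed sign while called: among the alternative values of single members, 1758 kept their side of the threshold, 76 lost and 20 gained a call. Thyroid counts of 12 higher and 9 lower became 10 and 8 with edgeR and 12 and 8 with DESeq2; without a filter 4 were lower, and with a signal of at least 1 in every library 5. Leaving out 1 library gave 9 to 11 higher and 4 to 6 lower, where 2044 to 2715 of all genes were higher and 1653 to 2477 lower. In all 6 leave-outs 12 of the 21 calls were kept. These include Dsg1a, Dsg1b, Cldn14 and Krt79, which passed the filter through 1 genotype alone, so that their calls are a description. In pituitary the counts of 3 and 2 became 1 and 0 without a filter and 4 and 3 with DESeq2. There 5 were lower when totals left out the 10 highest genes, and 1 was lower without the trend. Pituitary leave-outs gave 1 to 5 higher and 1 to 3 lower, where 454 to 915 of all genes were higher and 177 to 459 lower. Of the 5 calls, only that of Dsg1b was kept in all. Dsg1b passed the filter through the K146Q libraries alone, so that its call is a description. The hypothalamus stayed at 0 in all leave-outs. Effects that differed between tissues numbered 13 to 19 (thyroid and pituitary), 12 to 17 (thyroid and hypothalamus) and 0 to 3 (pituitary and hypothalamus) when 1 mouse was left out, and 5 for the last with only the 12 libraries of those tissues. With the mouse as a replicate block they were 23, 19 and 4 in place of 23, 17 and 3, and WT tissue differences kept their counts of 31 and 10, 33 and 17, and 21 and 17; the block changed no call but those of Cldn7, Cldn22 and Pkp4. WT counts between tissues were 28 to 31 higher and 10 lower, 31 to 33 and 16 to 19, and 19 to 21 and 14 to 16 in leave-outs. When totals left out the 10 highest genes, the thyroid median of all genes moved from -0.024 to -0.12 and the split of all calls from 2979 higher and 2713 lower to 2478 and 3568. Apart from fewer libraries or other genes tested, the cause was not tested. Below about 3 reads no fold is reliable.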
